A study of Arabidopsis thaliana with 4 samples.

Results

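Leaf RNA of Arabidopsis thaliana was compared between the library labelled sme1-1 20 °C and the library labelled Col-0 4 °C, 2 of the 4 RNA-seq libraries of a study of SME1, the gene of the spliceosomal protein SmE1. This pair was taken because earlier results had SME1 RNA highest under the label sme1-1 20 °C and cold-regulated RNA low under the label Col-0 4 °C, and because genotype and temperature labels differ together between them. Of 23049 genes with a read in at least 1 library, 17218 averaged 1 CPM or more and were compared, where CPM is the count per 1000000 uniquely mapped reads of a library. The groups were the accession Col-0 and the mutant sme1-1 in the Col-0 background, each at 20 °C and after 24 h at 4 °C, all as leaves of plants 2 weeks old grown on soil in long days. Light also followed the temperature label, at 90 µmol per square metre and second during growth and 40 during the cold treatment. Each group was 1 library, so only sizes can be given. The labels do not say what kind of allele sme1-1 is, how many plants were pooled or at what hour the leaves were taken.

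Sm proteins form a ring around the small nuclear RNAs of the spliceosome, and SmE is a member of that ring, without which the particles that remove introns do not mature. In cold, Arabidopsis leaves switch on the CBF transcription factors, which bind the C-repeat element in the promoters of COR genes, and the COR proteins protect membranes and chloroplasts during freezing. The circadian clock gates this response, flavonoid pigments accumulate in cold and light, and transcripts of photosynthesis are often lowered in cold. These gene groups were used to ask which treatment and genotype each of these libraries looked like.

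Counted reads numbered 44.6 M to 47.2 M per library. They numbered 45.0 M in the library labelled sme1-1 20 °C and 47.2 M in that labelled Col-0 4 °C. At these depths 3 reads, the floor used for an undetected gene, came to 0.0636 to 0.0672 CPM. The 6 leaf markers, among them the Rubisco small subunit gene RBCS1A and the chlorophyll-binding protein gene CAB1, summed to between 74071 and 85388 CPM in every library. Flower markers summed to at most 1.86 CPM and seed markers to at most 0.178 CPM. The root markers RHD6 and EXPA7 were read in no library, CASP1 stayed at 1.73 CPM or less, and SCR and PYK10 were read in all 4. Below, values of the 4 libraries are always given in the order Col-0 at 20 °C, sme1-1 at 20 °C, Col-0 at 4 °C and sme1-1 at 4 °C, as labelled. "Higher" and "lower" mean the library labelled sme1-1 20 °C relative to the library labelled Col-0 4 °C. Folds are ratios of CPM, and the interval after each is an exact 95% interval that covers counting error only.

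The targeted gene is described first, with no level of its RNA fixed by the labels, which do not state the kind of allele. SME1 (AT2G18740, chromosome 2) had 655, 1252, 32 and 43 reads, or 14.7, 27.8, 0.679 and 0.919 CPM. It was highest in the library labelled sme1-1 20 °C and lowest in the library labelled Col-0 4 °C, 41.0-fold apart (28.9 to 60.2). Reads covered 98.4% of the gene's length in the higher of these libraries and 56.5% in the lower, against 96.0% under the label Col-0 20 °C and 53.0% under the label sme1-1 4 °C. SME1 was thus high in both libraries labelled 20 °C and low in both labelled 4 °C, and the labelled genotype did not separate its values.

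SME2 (AT4G30330, chromosome 4), a close copy of SME1, had 10.2, 11.6, 10.2 and 9.59 CPM, and its ratio of 1.13 had an interval of 0.995 to 1.28 that includes 1. Per length, SME2 stood at 17.2, 19.5, 17.3 and 16.2 RPKM (CPM per kilobase of gene length) and SME1 at 21.8, 41.3, 1.01 and 1.36. SME1 was therefore the higher gene of the pair in both libraries labelled 20 °C and the lower in both labelled 4 °C. Reads placed on either copy can be affected by their similarity. The other 12 genes of the Sm ring, SME2 included, all lay within 2-fold, with log2 ratios from −0.21 to 0.86. Their median was 0.56, against 0.06 over all genes, and 10 of the 12 were above 0. The largest of them was SmD3, at 40.7, 68.8, 37.8 and 36.5 CPM. For sme1-1 4 °C over Col-0 20 °C, as labelled, the 13 Sm ring genes with SME1 had a median of 0.46, against 0.07 over all genes.

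Across the whole table, 1760 genes (10.2% of those compared) passed 2-fold on the higher side and 1164 (6.76%) on the lower side. The log2 ratios behind these counts had a prior count of 2 reads, and the median over all genes was 0.06. At least 10-fold apart were 60 genes on the higher and 26 on the lower side, and at least 100-fold apart 7 and 3.

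The cold-regulated genes held 7 of the 10 largest ratios on the higher side. Of 23 listed genes 22 were compared. Among the 22, 20 were at least 2-fold higher and 0 lower, against 10.2% and 6.76% of all genes. The median log2 ratio was 4.30 and the range 0.15 to 8.64. Low RNA of such genes under the label Col-0 4 °C was a reason for taking this pair. The count was therefore partly fixed by that choice. Over the list, CPM summed to 768, 20838, 793 and 24836. The library labelled Col-0 4 °C, which by its label had spent 24 h in cold, held these transcripts at the level of the library labelled Col-0 20 °C. With the prior count, LTI30 and RD29B of the 22 were at least 2-fold apart between these Col-0 libraries, against 1.57% of all genes, and LTI30 was the lower in the one labelled 4 °C. KIN1 lay next to that threshold, with a log2 ratio of 0.98 between them.

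COR15A, which encodes a chloroplast protein that stabilises membranes during freezing, stood at 25.9, 5092, 30.1 and 6272 CPM. The libraries labelled sme1-1 were high and those labelled Col-0 low, and the ratio of the compared pair was 169 (160 to 178). LTI30, a dehydrin gene, stood at 1.70, 339, 0.806 and 725 CPM, with a ratio of 421 (306 to 595), the largest on the higher side. RD29A, a classic reporter of cold and drought signalling, stood at 43.4, 2422, 36.6 and 3963 CPM, 66.1-fold higher (63.0 to 69.4). In each of these the lower library labelled sme1-1 lay far above the higher library labelled Col-0.

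The promoters of these 3 genes are shown because they carry the C-repeat core that the CBF factors bind. The letters were read from the TAIR10.1 genome of RefSeq, from 250 bases before to 50 after the start of each gene's main transcript model, with COR15A at chr2:17712281-17712580 on the minus strand, LTI30 at chr3:18940393-18940692 on the plus strand and RD29A at chr5:21240467-21240766 on the plus strand. Capitals mark CCGAC or, on the other strand, GTCGG, with 2, 3 and 4 matches in that order.
COR15A: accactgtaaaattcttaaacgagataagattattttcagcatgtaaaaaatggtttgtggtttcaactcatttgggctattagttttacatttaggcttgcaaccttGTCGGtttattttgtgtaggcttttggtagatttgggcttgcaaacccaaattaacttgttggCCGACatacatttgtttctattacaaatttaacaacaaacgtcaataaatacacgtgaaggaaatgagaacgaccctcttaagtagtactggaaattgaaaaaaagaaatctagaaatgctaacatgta
LTI30: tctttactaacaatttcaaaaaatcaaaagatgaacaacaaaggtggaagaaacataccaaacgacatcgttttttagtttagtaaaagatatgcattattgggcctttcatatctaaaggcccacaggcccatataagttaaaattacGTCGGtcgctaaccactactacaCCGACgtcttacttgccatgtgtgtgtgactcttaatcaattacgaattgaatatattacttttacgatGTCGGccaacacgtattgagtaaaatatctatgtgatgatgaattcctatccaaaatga
RD29A: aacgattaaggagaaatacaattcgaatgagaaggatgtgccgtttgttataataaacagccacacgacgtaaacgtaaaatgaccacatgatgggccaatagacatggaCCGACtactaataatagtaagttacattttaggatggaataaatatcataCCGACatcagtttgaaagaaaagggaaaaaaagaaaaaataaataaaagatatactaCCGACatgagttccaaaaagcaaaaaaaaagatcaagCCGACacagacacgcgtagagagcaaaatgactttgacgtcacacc
Either form of the core was found in 9 of the 22 promoters of compared cold-regulated genes (40.9%) and in 17.1% of the 17101 promoters of the same length that belonged to compared genes. The promoters of COR15B, KIN1 and AZI1, which were also among the 10 largest ratios, held none in this window. The shares describe lists chosen by hand, and whether CBF factors acted on these promoters here was not tested.

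Apart from RCI2B, the other compared genes of the list were also higher in both libraries labelled sme1-1 than in both labelled Col-0. KIN1, which encodes a small hydrophilic protein, stood at 0.852, 428, 1.72 and 974 CPM and was 249-fold higher (200 to 314). Its neighbour and close copy COR6.6 stood at 79.5, 1446, 100 and 2328 CPM, 14.4-fold higher (14.0 to 14.9). COR15B, the copy of COR15A, was 156-fold higher (140 to 173). Between such copies the division of reads is uncertain, but both members of both pairs were higher. GOLS3, a galactinol synthase gene of the raffinose pathway, stood at 1.08, 202, 1.19 and 319 CPM, 170-fold higher (131 to 225). AZI1 and EARLI1, which encode lipid transfer-like proteins, were 237-fold (206 to 274) and 32.8-fold (21.7 to 52.1) higher. AZI1 reached 981 CPM under the label sme1-1 20 °C and 691 CPM under sme1-1 4 °C, whereas most of the list was higher under the latter.

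The dehydrin gene COR47 was higher by a factor of 18.6 (18.1 to 19.1) and the dehydrin gene ERD10 by 13.8 (13.5 to 14.1). COR413IM1 and COR413-PM1, which encode multispanning membrane proteins, had ratios of 21.0 (18.9 to 23.3) and 9.36 (9.02 to 9.71). RD29B, a gene that answers mainly to abscisic acid, was 11.3-fold higher (8.04 to 16.4). The smallest calls were TIL, a lipocalin gene, at 2.85-fold (2.77 to 2.93), and CSDP1, a cold shock domain protein gene, at 2.20-fold (1.97 to 2.47). COR314-TM2 (1.31-fold, 1.18 to 1.46) and RCI2B (1.11-fold, 0.884 to 1.39) were within 2-fold. AT3G62550, BT2 and AT4G01985 completed the 10 largest ratios, at 127-fold (96.2 to 172), 84.5-fold (62.4 to 117) and 97.0-fold (50.9 to 213). None of these 3 was on the cold-regulated list, and all 3 were low in both libraries labelled Col-0.

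**Figure D1:**
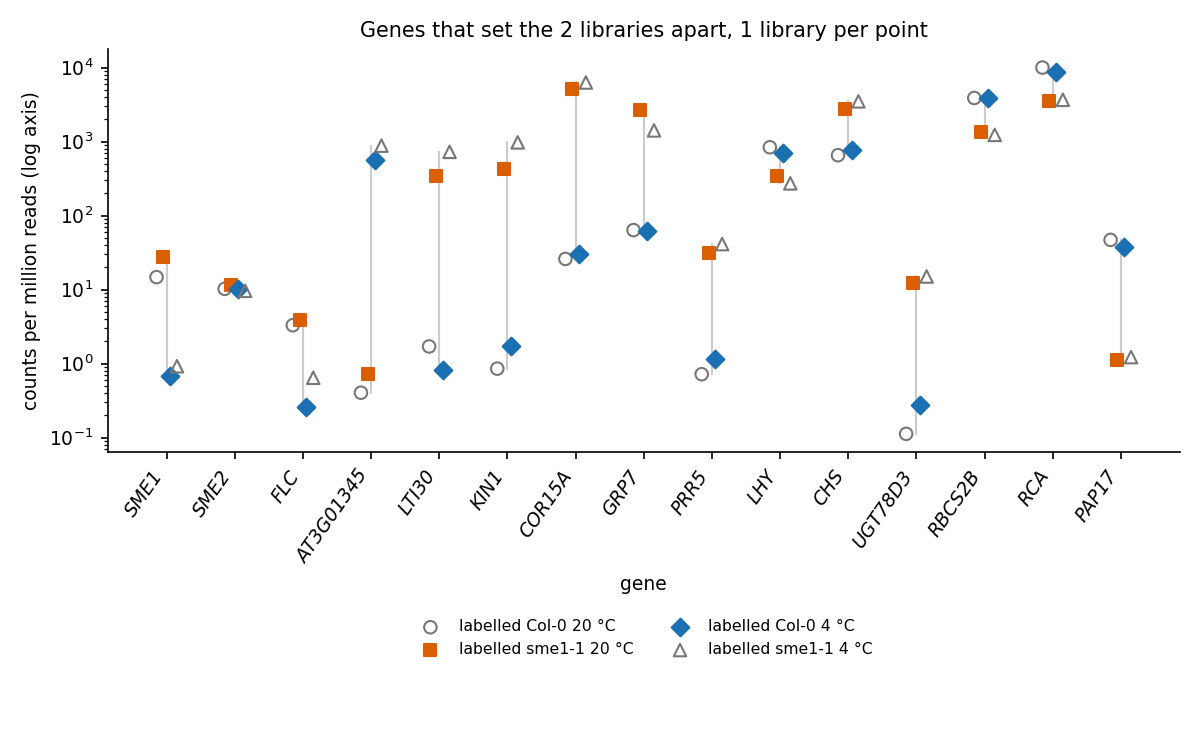
CPM (log axis) of 15 genes in the 4 libraries, with 1 point per library and a grey line joining the lowest and highest. SME1, FLC and AT3G01345 separate by the temperature label, whereas LTI30, KIN1, COR15A, GRP7, PRR5 and UGT78D3 are high, and RBCS2B, RCA and PAP17 low, in both libraries labelled sme1-1.

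Upstream of the COR genes, 13 of 18 listed signalling genes were compared, of which 3 were at least 2-fold higher and 1 lower, against 10.2% and 6.76% of all genes, with a median log2 ratio of 0.44. CBF2, a transcription factor of the C-repeat pathway, was read at 0.695, 3.91, 0.551 and 3.80 CPM, 7.10-fold higher (4.68 to 11.2). RAP2.1, an ERF-family target of the CBFs that acts as a repressor, stood at 6.28, 41.1, 5.75 and 35.9 CPM, 7.16-fold higher (6.30 to 8.16). COR27, a cold- and clock-regulated repressor, stood at 0.179, 6.87, 0.127 and 12.9 CPM, 54.0-fold higher (24.5 to 148). All 3 were high in both libraries labelled sme1-1 and low in both labelled Col-0. CBF1, CBF3, RAP2.6, MYB15 and AT4G33980 were below the filter, with at most 1.54 CPM in any library.

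ZAT10, a zinc finger repressor, was the gene of this list that was at least 2-fold lower, at 31.1, 9.78, 30.0 and 7.46 CPM, 3.07-fold (2.76 to 3.42). With 1 of 13 genes, the share lower was near the 6.76% of all genes. ICE1, which activates CBF genes, had 30.5, 30.6, 29.9 and 31.0 CPM and a ratio of 1.02 (0.948 to 1.10). ICE2 (1.60-fold), OST1, a kinase that modifies ICE1 (1.54-fold), and HOS1, which marks ICE1 for degradation (1.41-fold), were all higher but within 2-fold. ZAT12, another cold-induced repressor, stood at 0.897, 2.65, 2.04 and 4.64 CPM and had an interval of 0.985 to 1.72 that includes 1.

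GRP7, an RNA-binding protein gene of the cold list that the clock also drives, stood at 63.5, 2694, 62.0 and 1413 CPM, 43.4-fold higher (41.9 to 45.1). Its near relative GRP8, on the splicing list, stood at 42.3, 132, 25.3 and 88.1 CPM, 5.22-fold higher (4.90 to 5.56). Of the sme1-1 labels, the one at 20 °C held more of both.

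Among 22 compared clock genes of 23 listed, 8 were at least 2-fold higher and 6 lower, against 10.2% and 6.76% of all genes, with a median log2 ratio of 0.25 and a range of −1.68 to 4.72. Of 4 pseudo-response regulators PRR5, PRR7 and their relative TOC1 were higher and PRR9 was lower. Of 6 morning genes 4 lay below 0, and LHY, RVE8 and LNK1 were the 3 past 2-fold. PRR5 stood at 0.717, 31.3, 1.15 and 41.1 CPM, 27.3-fold higher (20.8 to 36.5). TOC1 stood at 8.90, 47.0, 10.1 and 55.3 CPM, 4.63-fold higher (4.19 to 5.13). The libraries labelled Col-0 lay within 2-fold of each other in both genes, and those labelled sme1-1 likewise.

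FKF1, a blue-light receptor gene of the flowering and clock pathways, was read at 0.0448, 1.93, 0.0848 and 2.56 CPM, 22.8-fold higher (8.59 to 85.5). ELF3 and LUX, which encode partners in the evening complex, were 3.64-fold (3.35 to 3.96) and 3.20-fold (2.69 to 3.81) higher. RVE2 and RVE1, MYB genes of the output of the clock, were 8.63-fold (7.49 to 9.98) and 2.85-fold (2.76 to 2.96) higher. PRR7 was 2.53-fold higher (2.36 to 2.70). All 6 of these were high in both libraries labelled sme1-1.

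Of the morning genes, LHY stood at 836, 337, 709 and 272 CPM, 2.11-fold lower (2.07 to 2.15), whereas its partner CCA1 stood at 506, 592, 456 and 558 CPM and was 1.30-fold higher (1.28 to 1.32). RVE8, an activator of evening genes, stood at 103, 28.1, 89.9 and 30.9 CPM, 3.21-fold lower (3.01 to 3.42). Its coactivator genes LNK1 and LNK2 were 2.73-fold (2.62 to 2.85) and 1.69-fold (1.66 to 1.73) lower, and the pseudo-response regulator PRR9 was 3.14-fold lower (2.84 to 3.48). In LHY, RVE8, LNK1, LNK2 and PRR9 the libraries labelled sme1-1 were both below the libraries labelled Col-0. GI, which stabilises the photoreceptor ZTL, differed from this order, at 21.9, 10.5, 29.7 and 40.3 CPM. It was 2.83-fold lower (2.55 to 3.15) in the compared pair, but highest of all in the library labelled sme1-1 4 °C. BOA, a homologue of LUX, was 3.26-fold lower (2.05 to 5.37) and also higher in the libraries labelled 4 °C than in those labelled 20 °C, at 0.628, 0.534, 1.74 and 1.28 CPM.

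**Figure D2:**
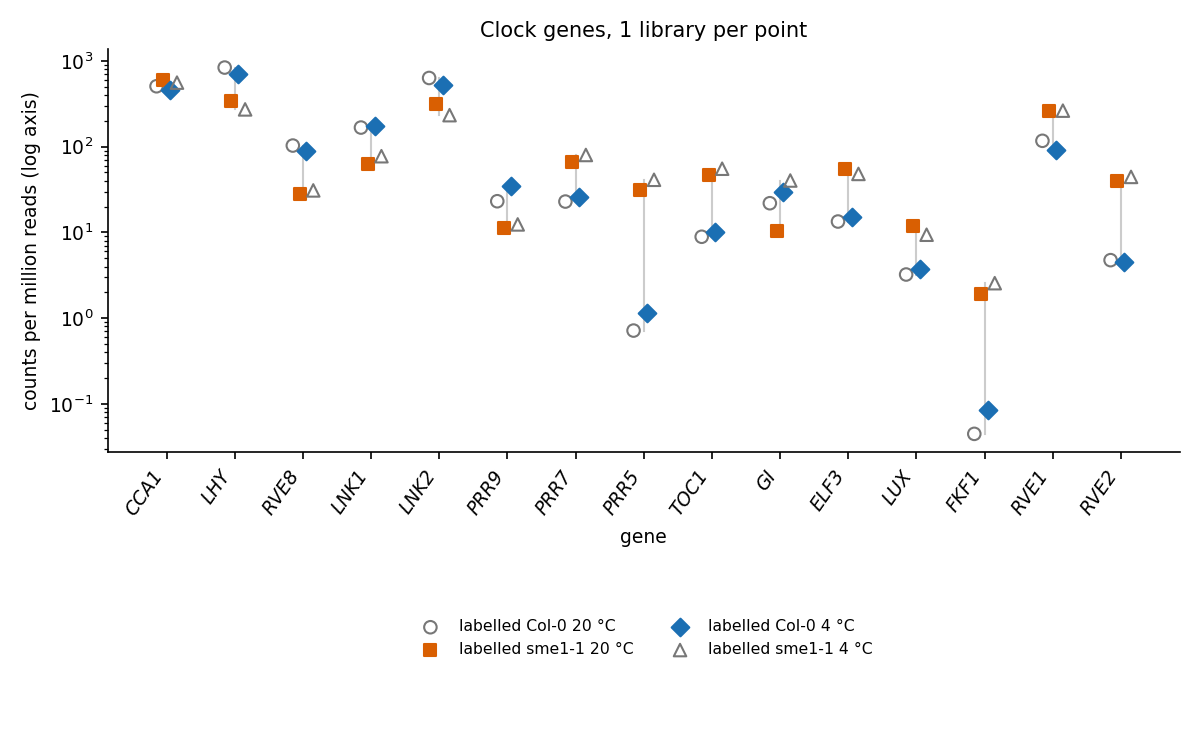
CPM (log axis) of 15 clock genes in the 4 libraries, with 1 point per library and a grey line joining the lowest and highest. PRR5, TOC1, ELF3, LUX, FKF1, RVE1 and RVE2 were high, and LHY, RVE8, LNK1, LNK2 and PRR9 low, in both libraries labelled sme1-1, and GI ran from 10.5 to 40.3 CPM between them.

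The promoters of GRP7 and TOC1 are shown because both genes differed and both carry the evening element, a motif of clock-controlled genes. Capitals mark AAATATCT or, on the other strand, AGATATTT, with 3 matches for GRP7 at chr2:9266508-9266807 on the minus strand and 1 match for TOC1 at chr5:24674713-24675012 on the plus strand, from the same genome and window as above.
GRP7: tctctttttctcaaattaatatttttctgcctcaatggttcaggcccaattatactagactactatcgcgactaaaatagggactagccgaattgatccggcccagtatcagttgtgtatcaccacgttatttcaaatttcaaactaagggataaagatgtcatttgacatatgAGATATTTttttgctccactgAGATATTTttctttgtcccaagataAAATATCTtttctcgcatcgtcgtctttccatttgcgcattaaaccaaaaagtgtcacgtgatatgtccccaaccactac
TOC1: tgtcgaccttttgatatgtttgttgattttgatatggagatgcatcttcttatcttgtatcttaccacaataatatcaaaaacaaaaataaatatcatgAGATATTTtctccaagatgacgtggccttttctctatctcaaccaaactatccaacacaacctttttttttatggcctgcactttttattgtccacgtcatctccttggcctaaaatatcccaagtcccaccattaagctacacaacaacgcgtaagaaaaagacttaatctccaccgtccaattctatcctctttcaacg
The element was found in 6 of 22 clock promoters (27.3%), 6 of 22 cold-regulated promoters (27.3%), 5 of 13 of the cold signalling list (38.5%) and 5.99% of the promoters of compared genes. The G-box CACGTG, which reads the same on both strands, was found in 11 of 22 clock promoters (50.0%) and 9.06% of the promoters of compared genes. Matches of each motif were counted separately, whether or not they shared letters with another. These shares too describe lists chosen by hand.

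Flavonoid enzyme genes were mostly higher from chalcone synthase onwards. Of 25 compared genes of 27 listed, 11 were at least 2-fold higher and 1 lower, against 10.2% and 6.76% of all genes, with a median log2 ratio of 0.74. The phenylpropanoid entry genes PAL1, C4H and 4CL3 all lay below 0 and within 2-fold. CHS, the entry enzyme of flavonoid synthesis, stood at 653, 2719, 765 and 3489 CPM, 3.55-fold higher (3.51 to 3.60). All 5 early flavonoid genes and all 6 genes of the anthocyanin branch were above 0, and 3 and 5 of them at least 2-fold.

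In the early part, F3'H, a hydroxylase gene, was 3.93-fold higher (3.57 to 4.33) and CHI, the isomerase gene, 2.26-fold (2.13 to 2.39). DFR, which commits flavonoids to anthocyanin, stood at 30.6, 111, 50.8 and 131 CPM, 2.19-fold higher (2.09 to 2.30). LDOX and UF3GT, which encode later enzymes of that branch, were 2.64-fold (2.46 to 2.84) and 2.47-fold (2.25 to 2.71) higher. TT19, a glutathione transferase gene needed to carry anthocyanin to the vacuole, stood at 13.5, 74.5, 21.1 and 110 CPM, 3.54-fold higher (3.29 to 3.80). In CHS, DFR and TT19 the library labelled Col-0 4 °C was above that labelled Col-0 20 °C, by less than 2-fold in each, and below both libraries labelled sme1-1. The same difference passed 2-fold in 2 of the 25 flavonoid genes, against 1.57% of all genes. These were UF3GT and UGT78D3, each at a log2 ratio of 1.04, and UGT78D3 had few reads in both libraries labelled Col-0.

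UGT78D3, a flavonol arabinosyltransferase gene, had the largest ratio of the list, 0.112, 12.1, 0.276 and 15.0 CPM, 44.0-fold higher (25.5 to 83.2). Its relatives UGT78D1 and UGT78D2 were close to equal, at ratios of 1.03 in the lower and 1.06 in the higher direction. Among regulators, MYBL2, a repressor of anthocyanin genes, stood at 13.0, 72.6, 8.44 and 54.7 CPM, 8.60-fold higher (7.75 to 9.57). TT8, an activator, was 2.24-fold higher (1.92 to 2.62), and PAP1, the MYB activator, had 13.9, 16.0, 15.8 and 16.4 CPM. MYB111, an activator of flavonol genes, was the gene of the list that was lower, at 16.3, 9.03, 19.3 and 7.86 CPM, 2.14-fold (1.90 to 2.41).

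Transcripts of photosynthesis were lower for the most part and by modest amounts. Of 39 genes, all compared, 34 had a log2 ratio below 0 and 5 above, but only 5 were at least 2-fold lower and 2 higher, against 6.76% and 10.2% of all genes, with a median of −0.49 against 0.06 over all genes. Their CPM summed to 168395, 139603, 178595 and 137584, so both libraries labelled sme1-1 held less. RBCS2B, a Rubisco small subunit gene, stood at 3873, 1337, 3892 and 1229 CPM, 2.91-fold lower (2.89 to 2.94). RCA, which encodes the activase that restores Rubisco, stood at 9982, 3532, 8824 and 3658 CPM, 2.50-fold lower (2.48 to 2.51). The libraries labelled Col-0 were the high ones in both.

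The other members past 2-fold were RBCS3B at 2.15-fold (2.14 to 2.16), the photosystem I gene PSAD-2 at 2.34-fold (2.31 to 2.37) and the antenna gene LHCB4.2 at 2.27-fold (2.25 to 2.29). RBCS1A, the most read small subunit gene, was only 1.19-fold lower, at 31947, 28618, 34005 and 27229 CPM. The antenna genes were split, since CAB2 was 1.48-fold higher and CAB1 nearly equal, at a ratio of 1.03, while 12 of 15 lay below 0. The near-identical RBCS and CAB genes share sequence, so the division of reads within each family is uncertain. The early light-induced genes ELIP2 and ELIP1, whose proteins bind pigment under light and cold stress, went the other way. ELIP2 stood at 26.2, 192, 43.5 and 289 CPM, 4.42-fold higher (4.21 to 4.64), and ELIP1 at 68.5, 258, 106 and 248 CPM, 2.43-fold higher (2.35 to 2.51). Genes encoded in the plastid also lay lower, with 54 of 64 below 0 and a median of −0.54, but 60 of the 64 were within 2-fold. In the other pair of libraries their median was −0.01.

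**Figure D3:**
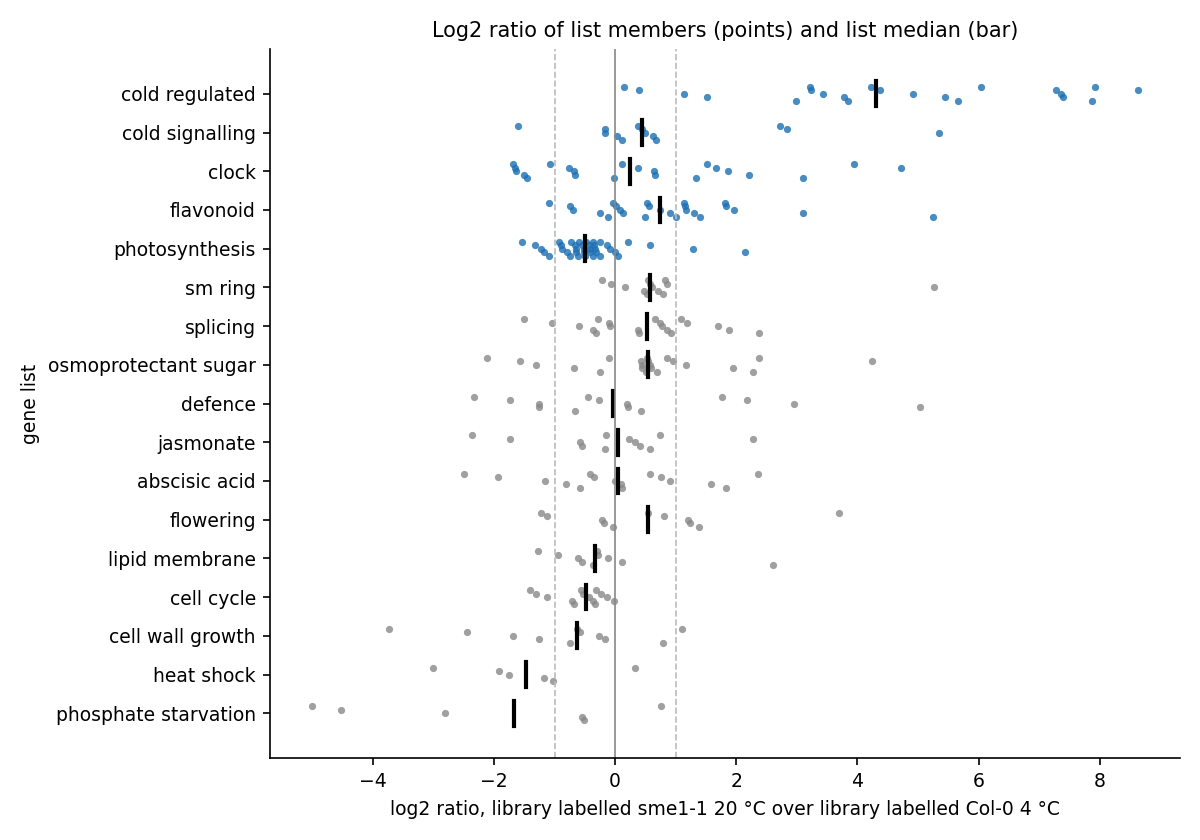
Log2 ratio of the library labelled sme1-1 20 °C over the library labelled Col-0 4 °C for the members of 17 gene lists, with 1 point per gene, a black bar at each list's median and dashed lines at 2-fold. The median of the cold-regulated list lies at 4.30, that of the flavonoid list at 0.74 and that of the photosynthesis list at −0.49, against 0.06 over all genes.

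Set against the libraries outside the pair, each of the compared libraries resembled the library with the same genotype label. Between the libraries labelled Col-0, 271 genes (1.57%) were at least 2-fold apart, and between those labelled sme1-1, 969 (5.63%). The pairs labelled at the same temperature differed more, in 2749 genes (16.0%) at 20 °C and in 3344 genes (19.4%) at 4 °C. The compared pair differed in 2924 genes (17.0%), and the remaining pair, labelled sme1-1 4 °C and Col-0 20 °C, in 3706 genes (21.5%). The 6 counts share libraries and are not independent of each other.

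**Figure D4:**
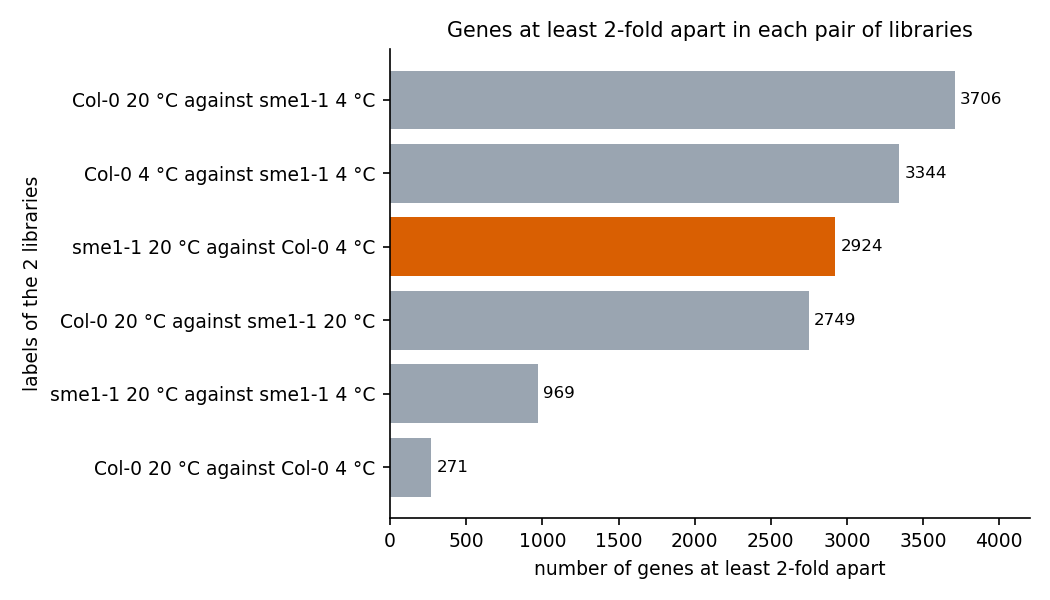
Number of genes at least 2-fold apart in each of the 6 pairs of libraries, of 17218 compared, with the pair described here in orange. The smallest counts, 271 and 969, are those of the pairs that share a genotype label.

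Genes can be sorted by how the 4 libraries divide. For 972 genes (5.65%) both libraries labelled sme1-1 lay at least 2-fold above both labelled Col-0, and for 564 (3.28%) at least 2-fold below, 1536 genes or 8.92% in all. A gap of that size between the temperature labels was found for 60 genes (0.348%), of which 17 (0.0987%) were higher in the libraries labelled 20 °C and 43 (0.250%) higher in those labelled 4 °C. In the crossed division, with the compared pair against the other pair, 4 genes (0.0232%) passed. Of the 3706 genes that separated sme1-1 4 °C from Col-0 20 °C, as labelled, the library labelled sme1-1 20 °C lay nearer the former for 2737 (73.9%), and the library labelled Col-0 4 °C lay nearer the latter for 3438 (92.8%). Over all 17218 compared genes, 2-fold apart or not, these shares were 62.1% and 78.9%. On that same base, the numbers were 22 and 21 of the 22 cold-regulated genes and 10 and 13 of the 13 cold signalling genes. They were 16 and 18 of the 22 clock genes and 18 and 19 of the 25 flavonoid genes. For the 39 photosynthesis genes they were 32 and 34.

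The compared pair and the pair labelled sme1-1 4 °C and Col-0 20 °C have no library in common. In that other pair 2044 genes (11.9%) passed 2-fold upwards under the sme1-1 label and 1662 (9.65%) downwards. Higher in both pairs were 1088 genes (6.32%), which is 61.8% of the higher genes of the compared pair and 53.2% of those of the other. Lower in both were 628 (3.65%), or 54.0% and 37.8%. Across genes the log2 ratios of both pairs had a Pearson correlation of 0.65 and a Spearman correlation of 0.63, given as a description since genes are not independent replicates. In the main lists the other pair had 19 cold-regulated genes higher and 0 lower, and 5 cold signalling genes higher and 1 lower. It had 11 flavonoid genes higher and 1 lower, 8 clock genes higher and 4 lower, and 2 photosynthesis genes higher and 5 lower.

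**Figure D5:**
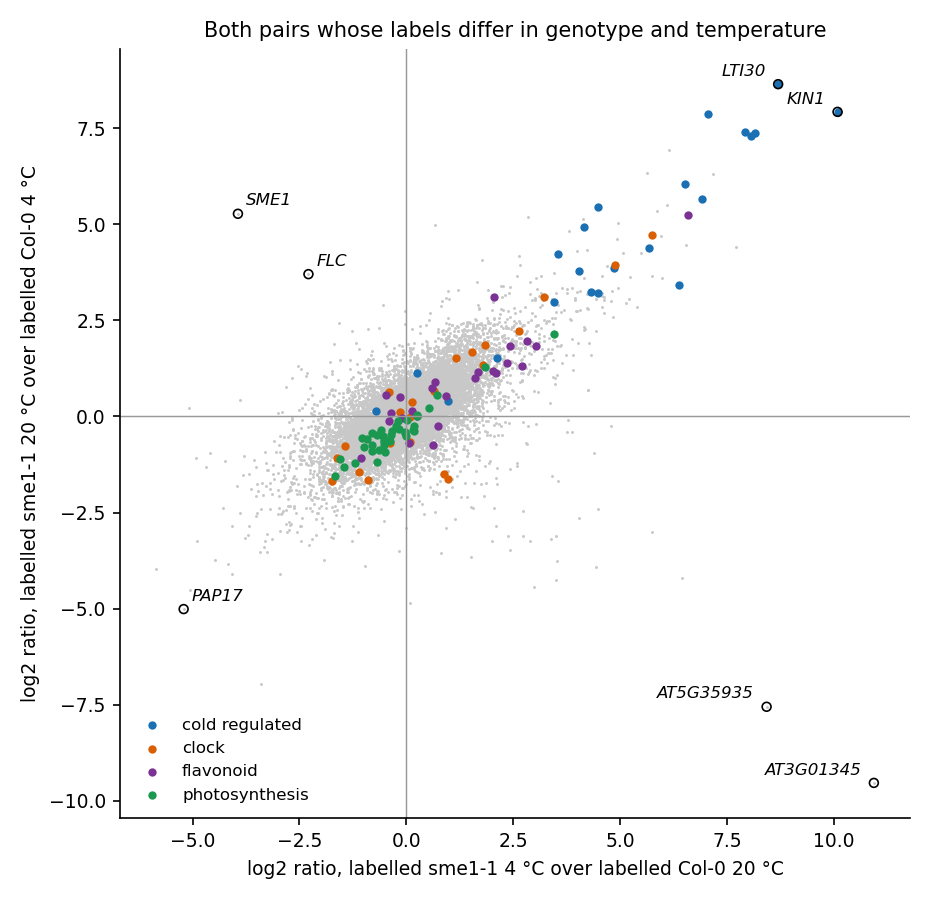
Log2 ratios of the 17218 compared genes in both pairs that differ in genotype and temperature label, with the pair labelled sme1-1 4 °C and Col-0 20 °C on the horizontal axis and the compared pair on the vertical axis. Cold-regulated genes lie at the upper right, and SME1 (5.27 vertically, −3.94 horizontally), FLC, AT3G01345 and AT5G35935 lie in the opposite corners.

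SME1 belonged to the small set of 81 genes (0.470%) that passed 2-fold in both pairs with opposite signs, 24 of them higher in the compared pair and 57 lower. In these genes each pair was ordered by its temperature labels, whereas in the called cold-regulated genes it was ordered by its genotype labels. AT3G01345, an uncharacterized gene, stood at 0.403, 0.711, 557 and 879 CPM (18, 32, 26243 and 41147 reads). It was 782-fold lower (554 to 1144), the largest ratio among the compared genes. AT5G35935, also uncharacterized, had 0, 2, 777 and 700 reads, 371-fold lower (102 to 3066). AT5G35935 was under the floor of 3 reads in both libraries labelled 20 °C, and both genes were far higher in the libraries labelled 4 °C.

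SADHU3-2, annotated as uncharacterized, was read at 0, 0.0445, 1.57 and 3.74 CPM, and AT5G53230 at 0.0897, 0.0889, 1.95 and 2.86 CPM. NDB4, which encodes an alternative NAD(P)H dehydrogenase, stood at 0.314, 0.600, 5.09 and 19.0 CPM, 8.48-fold lower (5.68 to 13.1). QQS, a regulator of starch content, stood at 0.426, 0.222, 5.71 and 3.68 CPM, 25.7-fold lower (13.7 to 54.1). AT1G43590, AT5G25230, AT1G17960 and AT2G18193 gave the same order, at 28.1-fold, 9.38-fold, 17.6-fold and 9.69-fold lower. With SME1, all of these were on 1 side in the libraries labelled 20 °C and on the other in those labelled 4 °C.

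FLC, the repressor of flowering that prolonged cold silences, stood at 3.29, 3.82, 0.255 and 0.641 CPM. It was 15.0-fold higher (8.38 to 29.6), and the libraries labelled 20 °C were both above those labelled 4 °C. AGL24, which promotes flowering, followed, at 11.5, 7.36, 3.12 and 2.05 CPM, 2.36-fold higher (1.94 to 2.89). SOT18, LBD40 and MAF5 were picked from the temperature-label division after their values were seen. SOT18, a sulfotransferase gene of glucosinolate synthesis, stood at 16.8, 14.4, 125 and 112 CPM, LBD40 at 0.941, 0.711, 7.02 and 7.29 CPM, and MAF5, a relative of FLC, at 4.68, 4.78, 10.5 and 15.4 CPM. None of these genes belongs to the cold-regulated list.

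The measurements can be set beside both ways of reading the labels. As labelled, the sme1-1 library at 20 °C had the most SME1 RNA and cold transcripts summing to 20838 CPM, against 793 CPM in Col-0 after 24 h in cold. With the labels of these 2 libraries exchanged, SME1 would be low in both sme1-1 libraries (0.679 and 0.919 CPM) and high in both Col-0 libraries (14.7 and 27.8 CPM). The cold-regulated list would then sum to 768 and 793 CPM in the libraries at 20 °C and to 20838 and 24836 CPM in those at 4 °C. SME1 and this list are the values for which the pair was taken, so they give no independent support to either reading. The clock, flavonoid and photosynthesis lists were chosen with earlier results of these data known, so they give none either. The tables alone do not show at which step a label could have moved, and whether the tables were exchanged was not tested. Nor can genotype and temperature be told apart within the compared pair under either reading.

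Several of the most strongly lower genes followed the genotype label instead. The phosphate starvation genes PAP17, a purple acid phosphatase gene, SRG3, a phosphodiesterase gene, and SPX1, a phosphate sensor gene, made up the 3 members at least 2-fold lower of 6 compared, with 0 higher, against 6.76% and 10.2% of all genes. PAP17 stood at 46.8, 1.11, 37.2 and 1.22 CPM, 33.5-fold lower (25.3 to 45.3), SRG3 at 31.3, 0.978, 23.4 and 0.897 CPM, 23.9-fold lower (17.7 to 33.1), and SPX1 at 14.8, 2.07, 14.7 and 2.05 CPM, 7.12-fold lower (5.73 to 8.94). In each the libraries with the same genotype label lay within 2-fold of each other. Also at that end were cPT4, a prenyltransferase gene, at 78.0, 3.71, 64.6 and 4.59 CPM, the cysteine proteinase gene AT2G27420 at 313, 23.2, 331 and 17.4 CPM, and FTM1, a desaturase-family gene, at 2.47, 0.133, 2.76 and 0 CPM. The lectin gene AT1G52100 was 206-fold lower (70.1 to 1000), at 3.12, 0.0667, 13.7 and 0.256 CPM, with only 3 reads in the lower library. MIOX2, a myo-inositol oxygenase gene, was high in the library labelled Col-0 4 °C alone, at 0.179, 0.133, 5.11 and 0.192 CPM.

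Of 11 listed heat shock genes 6 were compared, and 5 of these were at least 2-fold lower, against 6.76% of all genes, with a median log2 ratio of −1.47. In the other pair 3 of the 6 were lower under the sme1-1 label, against 9.65% of all genes, with a median of −0.98. HSFA2, a heat shock transcription factor, stood at 2.22, 0.333, 2.97 and 0.342 CPM, 8.90-fold lower (5.22 to 16.3), and the chaperone gene HSP101 was 3.80-fold lower (3.38 to 4.28). Genes of cell expansion showed 4 of 11 lower and 1 higher, against 6.76% and 10.2% of all genes, so the share higher was near that of all genes. EXPA8, an expansin gene, stood at 62.0, 3.31, 44.6 and 2.73 CPM, 13.5-fold lower (11.4 to 16.0), and EXPA11 was 5.44-fold lower (4.90 to 6.05). XTH24, a wall-loosening enzyme gene, was the one higher, at 123, 133, 62.1 and 36.6 CPM. All 14 cell cycle genes were below 0, with a median of −0.48 against 0.06 over all genes. KRP1, an inhibitor of cyclin-dependent kinases, CYCD1;1 and CYCD3;3 were the 3 at least 2-fold lower, against 6.76% of all genes. In the other pair CYCD3;3 was within 2-fold.

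In sugar and osmoprotectant metabolism 5 of 22 genes passed 2-fold on the higher side and 3 on the lower, against 10.2% and 6.76% of all genes. SUS1, a sucrose synthase gene, stood at 12.8, 244, 12.9 and 576 CPM, 19.0-fold higher (17.5 to 20.6). AMY3 and SEX1, which act in the breakdown of starch, were 5.19-fold (4.76 to 5.66) and 3.87-fold (3.73 to 4.01) higher. GOLS1 was 4.83-fold higher (4.45 to 5.26) and GOLS2, of the same galactinol synthase family, 4.39-fold lower (3.52 to 5.52). In the other pair 11 of the 22 were higher under the sme1-1 label and 2 lower, against 11.9% and 9.65% of all genes. GOLS2 was within 2-fold there. Of 10 membrane lipid genes 1 was at least 2-fold higher and 1 lower, which is near the 10.2% and 6.76% of all genes. ADS2, a cold-induced desaturase gene, was the one higher, at 14.5, 83.6, 13.7 and 116 CPM, and FAD2, an oleate desaturase gene, was lower, at 695, 280, 679 and 289 CPM. The order of libraries was again that of the genotype labels in SUS1, ADS2 and FAD2.

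Hormone and defence lists were mixed, with medians of −0.03 for defence, 0.04 for jasmonate and 0.05 for abscisic acid. Defence had 4 of 14 at least 2-fold higher and 4 lower, against 10.2% and 6.76% of all genes. PR5, a pathogenesis-related gene, stood at 10.4, 211, 6.36 and 325 CPM, 33.1-fold higher (29.5 to 37.3), whereas CBP60G, a calmodulin-binding regulator of salicylic acid synthesis, was 5.15-fold lower (3.88 to 6.94). MYC2, the main transcription factor of jasmonate responses, stood at 40.6, 8.45, 43.9 and 9.85 CPM, 5.20-fold lower (4.66 to 5.82), and AOC2, of jasmonate synthesis, was 4.87-fold higher (4.59 to 5.17). ABF1 and ABI5, transcription factors of abscisic acid signalling, were 5.21-fold (4.28 to 6.40) and 3.84-fold (2.25 to 6.88) higher. HAI1, a phosphatase gene of that pathway, was 5.85-fold lower (4.14 to 8.48).

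Among splicing factors 5 of 20 were at least 2-fold higher and 2 lower, against 10.2% and 6.76% of all genes, so the share lower was near that of all genes. RS40, an arginine/serine-rich splicing factor gene, stood at 32.8, 124, 33.7 and 92.9 CPM, 3.68-fold higher (3.48 to 3.89). PRMT5, an arginine methyltransferase of Sm proteins, stood at 16.4, 44.8, 13.9 and 44.5 CPM, 3.23-fold higher (2.96 to 3.54). SCL33, another splicing factor gene, was 2.84-fold lower (2.53 to 3.18). RS40 and PRMT5 were high in both libraries labelled sme1-1. Gene counts do not show how introns were spliced, which was not analysed here.

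Root markers moved with the genotype label. Their CPM summed to 295, 137, 312 and 149, with PYK10 2.70-fold lower (2.59 to 2.81) and SCR 1.87-fold lower (1.79 to 1.95), and CASP1 higher, at 0.336, 1.73, 0.297 and 0.940 CPM. Of the leaf markers CA1, a carbonic anhydrase gene, was past 2-fold, at 10179, 3455, 10939 and 3360 CPM. Their part in the other differences was not tested, and in whole leaves fewer cells of a type and less RNA per cell cannot be told apart.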

How the data were processed

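RNA-seq of 4 leaf libraries was analysed from the submitters' table of each library. The tables were made on the TAIR10 genome build, per the submitters' processing notes, and the sources used here do not name the aligner, counter or strand setting. Per the file headers, the authors deposited for each gene the count of uniquely mapped reads, the percent of its length covered, and RPKM. RPKM recomputed from count, length and header total matched within a relative 1e-06. No table column belonged to a sample outside the series.

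Counts were divided by the file total, genes missing from a table were set to 0, and 17218 of 23049 genes passed a minimum of 1 CPM for the mean of the 4 libraries. Log2 ratios had a prior count of 2, and 2-fold was the threshold. With 1 library per group and no replicates, nothing was tested. Intervals (95%) treat the ratio of 2 counts exactly, conditional on their sum, and reads without molecular identifiers are not independent molecules, so intervals and the floor of 3 reads cover counting error only. The ratio calculation was tested on simulated data. Alternatives were TMM factors (edgeR 4.0.16), size factors (DESeq2 1.42.0), totals without organelle-encoded genes, a prior count of 0.5, no filter, a mean of at least 5 CPM, and calls with the interval wholly past 2-fold. Python 3.11.15 and R 4.3.3 were used.

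The gene members and lists were chosen with earlier results of these data known. SME1 and SME2, the 10 largest ratios in each direction, the 10 largest among genes opposite in both pairs, 5 per direction of the genotype-label and crossed divisions, all members of the 5 main lists and up to 5 of each other list could be named. Of the gene codes read, 22861 matched the reference annotation and 188 did not, and promoters came from TAIR10.1. Of the genes given with values, COR15B, EARLI1, FKF1, ELF3, LUX, LNK1, LNK2, RVE1, BOA, CHS, TT19, RCA, LHCB4.2, PAP17, SRG3, cPT4, FLC, HSP101, MYC2, TIL, PYK10, GOLS1, ABF1, RS40 and PRMT5 overlap another annotated gene on the opposite strand, and reads of both cannot be told apart where counting ignored strand. SOT18 overlaps another annotated gene on the same strand, where the strand of a read does not separate them.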

Additional observations from a re-analysis of the deposited data

Results flagged for a closer look

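The 4 genes of the crossed division had differences by temperature label that ran in opposite directions in the 2 genotype labels. The log2 difference of the library labelled Col-0 4 °C over that labelled Col-0 20 °C is given before that of the library labelled sme1-1 4 °C over that labelled sme1-1 20 °C. The values were −1.54 and 6.70 for AT2G04050, a MATE efflux family gene with 2 reads in the library labelled sme1-1 20 °C. They were −1.10 and 1.86 for AT2G21640, annotated as a marker of oxidative stress, −1.08 and 2.56 for CYP71A13, a cytochrome P450 gene of camalexin synthesis, and −1.19 and 1.40 for CYP81F2, a cytochrome P450 gene of indole glucosinolate metabolism. In that division the library labelled Col-0 20 °C and that labelled sme1-1 4 °C were both above the compared pair. The opposite directions of these 4 genes therefore follow from how they were selected. In all, 14 of the 17218 compared genes were at least 2-fold apart by temperature label in opposite directions. At least 2-fold apart in either direction were 1.57% of genes between the Col-0 labels and 5.63% between the sme1-1 labels. With 1 library per group the difference between the genotype labels was not tested.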

How the results depend on the processing

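No paired analysis was possible because the values come from no test and each group was 1 library with no replicate number. An additive fit of both labels over the 4 libraries was not run. Of 170 values recomputed for 28 counts and medians under the alternatives, 146 stayed within 1.5 times (counts) or 0.1 log2 (medians), and no called direction reversed, nor did any called value among 1144 more for other lists and 218 named genes. Scaling by TMM or size factors moved the all-gene median log2 ratio from 0.06 to −0.01, with 1564 and 1570 genes higher and 1362 and 1359 lower, and turned the sign of ratios closer to 0 than that shift, such as those of CAB1 and ICE1.

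Without the filter on low counts, 2924 genes were higher and 2197 lower, 998 were lower in both pairs, and 236 and 224 were opposite (higher, then lower, in the compared pair). The divisions then gave 850 genes higher in the libraries labelled Col-0, 178 higher in those labelled 20 °C, 165 higher in those labelled 4 °C, and 34 and 51 in the crossed division (compared pair higher, then lower). The clock median became 0.38, the cold signalling list had 7 higher and 2 lower with a median of 0.55, and the flavonoid list 3 lower with a median of 0.56. At a mean of at least 5 CPM, 709 genes were lower, 8 and 15 opposite, 6 and 12 divided by the 20 °C and 4 °C labels, and 1 by the crossed labels, and the flavonoid median was 0.90. With the interval wholly past 2-fold 725 genes were lower. By construction the filters change how many genes with few reads are counted. Ratios resting on 3 reads or fewer in a library have wide counting intervals, such as those of AT5G35935 (102 to 3066) and AT1G52100 (70.1 to 1000), and no ratio has a replicate check.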
